A study of Mus musculus with 6 samples.

Results

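Vascular endothelial cells, the cells that line blood vessels, made up 460 of 34834 cells (1.32%) in 6 droplet libraries of whole dorsal mouse skin. A cell was taken as a member from its raw UMI counts, where a UMI (unique molecular identifier) marks 1 captured transcript. The rule asked for at least 4 UMIs summed over the 8 endothelial genes Pecam1, Cdh5, Kdr, Flt1, Emcn, Egfl7, Cldn5 and Plvap, with at least 1 of them from Pecam1 or Cdh5. It also asked for under 2 UMIs of the lymphatic genes Prox1, Mmrn1, Lyve1 and Flt4 and under 5 UMIs of the macrophage genes Pf4, C1qa, C1qb and C1qc. Each cell held at least 500 UMIs and 300 genes, with at most 10% of its UMIs from mitochondrial genes. The lymphatic clause removed 57 cells and the macrophage clause 3. There were 42 members with exactly 4 UMIs of the 8 genes, and 78 further cells were 1 UMI short.

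Skin came from male wildtype C57BL/6 mice of 8, 26 and 52 weeks of age, and each library pooled the skin of 3 animals. At every age 1 library was made from skin kept ex vivo with PBMC-sec and 1 from untreated skin. PBMC-sec is what mononuclear cells of the blood secrete into their medium after gamma irradiation. The labels give neither its dose nor the length of treatment, and they do not say whether both libraries of an age came from the same animals. Untreated skin went to dissociation directly after collection, so PBMC-sec and the time that treated skin spent ex vivo cannot be told apart. The comparisons asked what vascular cells expressed in treated skin of each age, and how that differed between ages.

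Endothelial cells form the barrier between blood and tissue, and they differ along the vascular tree. Arterial cells carry Notch signalling genes such as Dll4, capillary cells take up and transport fatty acids, and the cells of postcapillary venules display selectins and chemokines that recruit leukocytes. Endothelium also answers type I interferon with antiviral genes, misfolded proteins with chaperones of the endoplasmic reticulum, and oxidants with genes driven by the transcription factor NRF2.

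The libraries held 19956655 to 40211991 UMIs in all deposited barcodes, and the members held 213481 to 362993 UMIs per library. The median member had 2248, 2272 and 2266 UMIs in PBMC-sec skin at 8, 26 and 52 weeks, against 2533, 2572 and 3445 UMIs in untreated skin. In the 8-week untreated library 5578 barcodes fell into low-spread clusters, and 8 of its 77 members were among them. A low-spread cluster had a Pearson dispersion, the spread of counts between its barcodes relative to counting error, of at most 2. By the same measure the other 5 libraries held 38 to 1465 such barcodes. With a stricter limit of 1.5 the 8-week untreated library held 4068 such barcodes and the other 5 libraries 0 to 38. Any pair of libraries shared 21 to 78 cell barcodes, of which 0 were members in both. Because the animals were pooled and each condition had 1 library, cells were never treated as replicates. Counts were summed over the members of a library and written as CPM, the members' counts scaled to the same total in each library. The kit tags transcript ends, so the counts were not divided by transcript length.

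Other endothelial genes, which the rule did not use, were high in the members. Erg, a transcription factor that maintains endothelial identity, was at 75.7 to 161.1 CPM in the members of the 6 libraries, at least 154.6 times the CPM of all other cells of the same library. Adgrf5, an adhesion receptor of vessel walls, was at 331 to 721 CPM, Sox17, a factor of arterial fate, at 47.8 to 90.9 CPM, and Robo4, a receptor of blood vessel endothelium, at 50.6 to 107.7 CPM. Ptprb, a phosphatase that dampens signalling of the receptor Tie2, was at 83.6 to 153.3 CPM. These genes were picked for their distance from all other cells and are given as a description.

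Of the genes in the rule, Cdh5, the cadherin of endothelial junctions, had 956, 798 and 896 CPM in PBMC-sec cells at 8, 26 and 52 weeks, against 1148, 1124 and 705 CPM in untreated cells. Pecam1, a junctional adhesion molecule, had 953, 888 and 829 CPM in PBMC-sec cells and 856, 1012 and 757 CPM in untreated cells at the same ages. Emcn, a sialomucin of capillaries and veins, had 512, 483 and 485 CPM in PBMC-sec cells and 249, 361 and 199 CPM in untreated cells. Plvap, which forms the diaphragms of fenestrae and caveolae, had 281, 409 and 219 CPM in PBMC-sec cells and 183, 192 and 159 CPM in untreated cells. The lowest value of all 4 genes was in 52-week untreated skin, but without the mixed members described below Pecam1 and Cdh5 were highest in that library, with 1707 and 1311 CPM. Mixed members are defined by rule-gene UMIs that are few beside those of other lineages, so leaving them out favours high levels of these genes. At least 1 UMI was found for Cdh5 in 87.6% of members, for Pecam1 in 86.1%, for Egfl7 in 67.8%, for Emcn in 50.2% and for Plvap in 26.3%. The rule also fixed the levels of the genes it used to leave cells out, so these are a description. Prox1, the master regulator of lymphatic fate, had 8.26, 0 and 7.82 CPM in PBMC-sec members at 8, 26 and 52 weeks, against 3.89, 0 and 0 CPM in untreated members. Flt4, a growth factor receptor of lymphatic and some blood vessels, had 33.1, 31.4 and 43.0 CPM in PBMC-sec cells and 35.0, 60.9 and 15.9 CPM in untreated cells. Macrophage and dendritic markers summed to 50.9 to 94.3 CPM in the members, against 275 to 778 CPM in all other cells.

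Genes of all vessel segments were found. Fabp4, a fatty acid carrier of capillary endothelium, had at least 1 UMI in 89.9, 74.4 and 86.2% of PBMC-sec members at 8, 26 and 52 weeks and 76.6, 76.5 and 71.4% of untreated members. Keratinocytes gave the background of free RNA, and were taken as cells with at least 20 UMIs of Krt5, Krt14, Krt1 and Krt10 and 0 UMIs of the 8 rule genes. Their share with a Fabp4 UMI was 0.81 to 4.31%, at a median depth of 4113.5 to 10013 UMIs per cell. Gpihbp1, which carries lipoprotein lipase to the capillary lumen, was found in 41.5% of all members, the fatty acid transporter Cd36 in 30.2% and the water channel Aqp1 in 23%. Of the arterial list, Dll4 was found in 33.9%, Sox17 in 17.8% and the Notch target Hey1 in 9.1% of members. Efnb2, an arterial ephrin, was found in 22.2% of members but also in 18.8 to 41.1% of the deeper keratinocytes, and free RNA and expression in keratinocytes were not told apart. Of the venous list, Lrg1 was found in 19.1%, the venous fate factor Nr2f2 in 8.9%, von Willebrand factor (Vwf) in 6.1%, and the adhesion and chemokine receptor genes Selp and Ackr1 in 5.7% and 2.4%. Of the sprouting list, the basement membrane gene Nid2 was found in 30.9%, Angpt2, a ligand of the receptor Tie2, in 15%, and the tip cell genes Apln and Esm1 in 4.8% and 3.0%.

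Tmem252, a gene of the venous list whose role in vessels is little described, had a UMI in 37.2, 33.7 and 38.5% of PBMC-sec members at 8, 26 and 52 weeks and 16.9, 19.1 and 17.1% of untreated members. All 3 PBMC-sec libraries lay above all 3 untreated ones. With every cell thinned to 1000 UMIs the shares were 19.1, 16.7 and 13.5% of PBMC-sec members and 7.04, 12.7 and 0% of untreated members, so that the 26-week libraries moved closer together. Its summed level was 229, 169 and 145 CPM in PBMC-sec cells at 8, 26 and 52 weeks, against 117, 98.4 and 47.8 CPM in untreated cells, and the difference did not pass the test described below (log2 1.12 ± 0.28, adjusted p = 0.221).

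**Figure D1:**
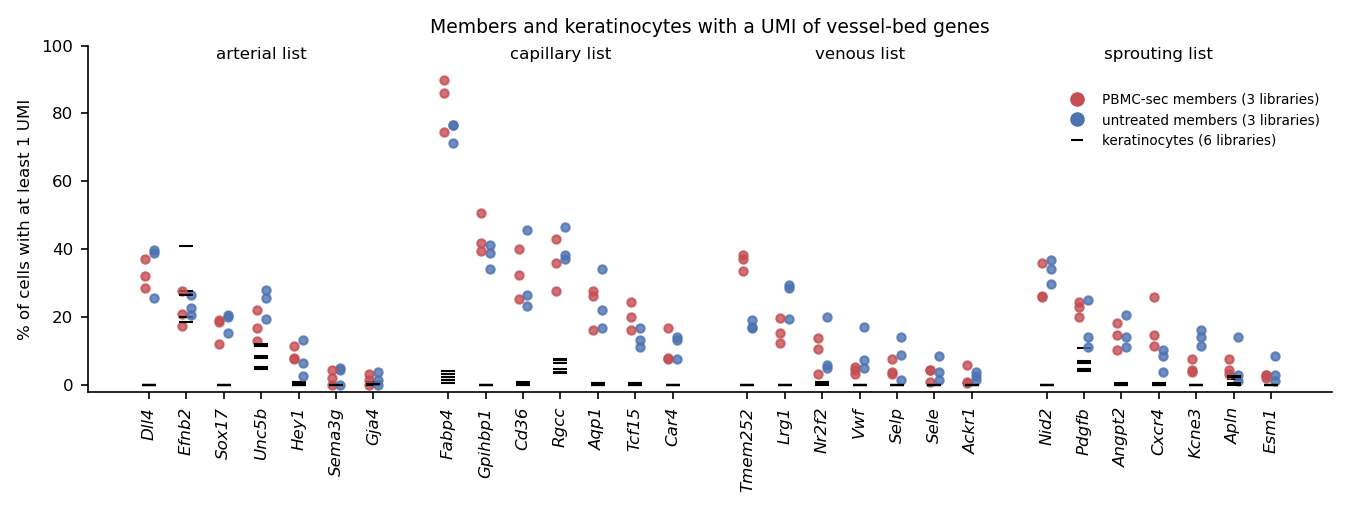
Share of cells (%) with at least 1 UMI of genes of the arterial, capillary, venous and sprouting lists; each point is 1 library, PBMC-sec members left and untreated members right, and black dashes are the keratinocytes of the 6 libraries. Fabp4 reaches 71.4 to 89.9% of members against at most 4.31% of keratinocytes, while Efnb2 lies at the same height in members and keratinocytes.

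Members differed in how much RNA of other skin cells they held. In 141 of the 460 members, UMIs of the marker genes of other lineages outnumbered the UMIs of the 8 rule genes. There were 40, 24 and 8 such mixed members in PBMC-sec skin at 8, 26 and 52 weeks and 40, 16 and 13 in untreated skin. They held 36.9, 36.9 and 29.0% of the members' UMIs in PBMC-sec skin, against 40.5, 19.4 and 60.8% in untreated skin. In 52-week untreated skin 5 members with over 20000 UMIs, 4 of them mixed, held 49.1% of all members' UMIs. The 5 deepest members of any other library held 18.2 to 29.4%.

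Fibroblast markers were among the genes that defined the mixed members. All 9 listed markers had UMIs in 52-week untreated members, against 4 to 7 of 9 in the other libraries. Their summed level was 168, 267 and 269.9 CPM in PBMC-sec members at 8, 26 and 52 weeks, against 669, 173 and 4341 CPM in untreated members. Col1a1, a fibrillar collagen chain, had 1235 CPM in 52-week untreated members and 3.93 to 84.3 CPM in the other 5 libraries. Without the mixed members the fibroblast sum was 48.0, 37.3 and 44.1 CPM in PBMC-sec members and 85.0, 11.6 and 81.3 CPM in untreated members. Leaving those members out selects against this sum, so the fall is a description. Keratinocyte markers summed to 6138, 3089 and 3470 CPM in PBMC-sec members, against 5217, 2487 and 944 CPM in untreated members, where all other cells held 17666 to 28330 CPM. Pericyte markers summed to 606, 676 and 376 CPM in PBMC-sec members, against 381, 403 and 219 CPM in untreated members. The treatment fit was therefore also run without the mixed members (319 cells were left) and without the 5 deep ones. The last of these was chosen after the data were seen.

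**Figure D2:**
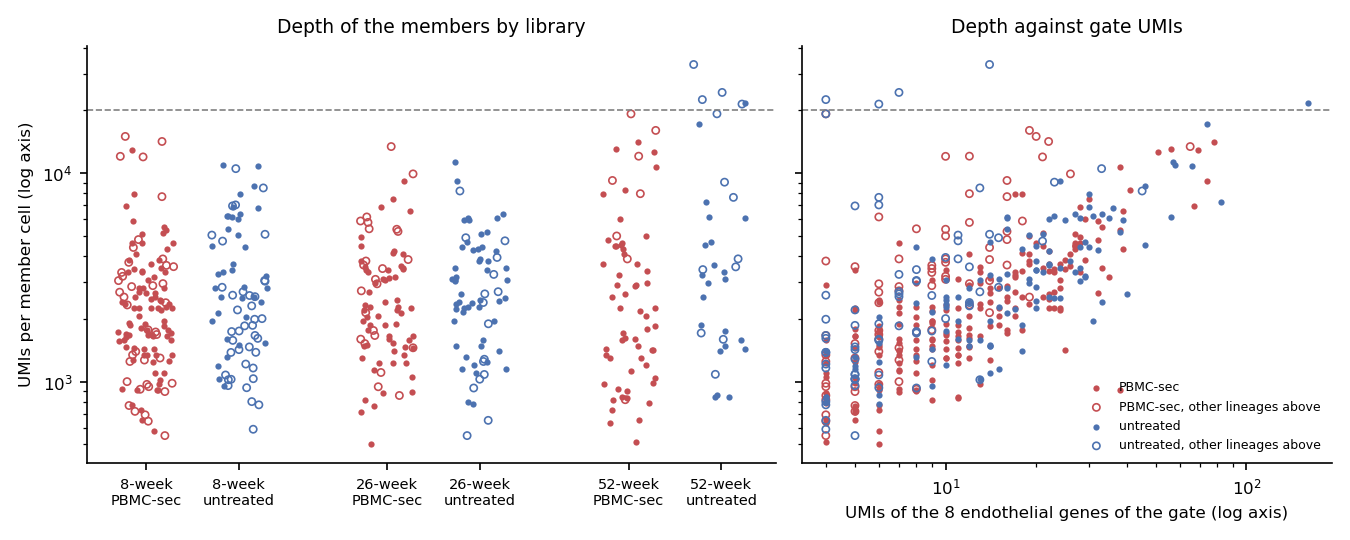
UMIs per member cell on a log axis, by library (left) and against the UMIs of the 8 rule genes (right); open circles are members with more UMIs of other lineages than of the rule genes, and the dashed line marks 20000 UMIs. The 5 members above the line are all from 52-week untreated skin, and 4 of them are open circles.

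Vascular endothelial cells were 2.36% of cells (129 of 5459) in 8-week PBMC-sec skin, against 0.834% (77 of 9237) in untreated skin. At 26 weeks they were 1.45% (86 of 5924) in PBMC-sec skin, against 1.22% (68 of 5579) in untreated skin. At 52 weeks they were 1.31% (65 of 4949) in PBMC-sec skin, against 0.95% (35 of 3686) in untreated skin. The share was higher in the PBMC-sec library of each age, and the 95% exact binomial intervals, which cover counting error only, were apart at 8 weeks and overlapped at the later ages. The log2 ratio of the shares was 1.5, 0.25 and 0.47 at 8, 26 and 52 weeks and averaged 0.74 ± 0.67 (SD, n = 3 ages), with p = 0.25 in a two-sided exact sign-flip permutation test, the smallest p that 3 pairs can give. The 26-week direction turned to a log2 ratio of −0.45 with cells thinned to 1000 UMIs and −0.22 with a gate of 8 UMIs. Without the barcodes of low-spread clusters the log2 ratios were 0.72 at 8 weeks and −0.02 at 26 weeks. With the stricter dispersion limit of 1.5 they were 0.78 and 0.25. With thinning, which evens out depth between cells, the mean over the ages was 0.32. Dissociation yield also sets such a share, and its part was not tested.

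**Figure D3:**
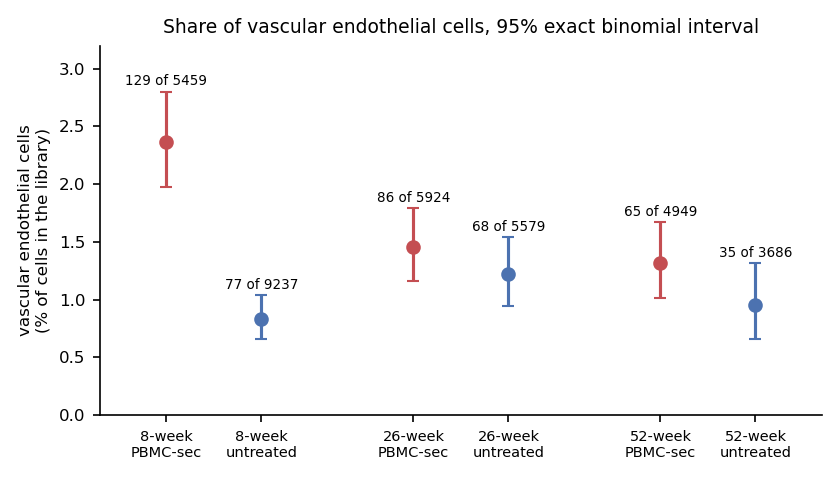
Vascular endothelial cells as % of the cells in each library, PBMC-sec left and untreated right at each age, with 95% exact binomial intervals and the cell numbers. The 8-week PBMC-sec library lies at 2.36% against 0.834% in untreated skin, and the intervals overlap at 26 and 52 weeks.

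Few genes separated the treatments when all members were summed. In edgeR's quasi-likelihood test with age as a term, 6 of 4531 genes tested (0.132%) were higher with PBMC-sec and 0 were lower at an adjusted p under 0.05, and 481 genes had an unadjusted p under 0.05. DESeq2 gave 12 genes, 8 higher and 4 lower. The 3 ages served as the replicates of the treatment difference. Of the 6 genes, Asprv1, Sprr1b, Crct1 and Sprr2d belong to cornifying keratinocytes, and with the chemokine gene Cxcl3 they were over 5 times higher in all other cells than in the members of at least 1 library, the limit used here for free RNA. Only Akr1b3 was below that limit.

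Akr1b3 encodes aldose reductase, which makes the osmolyte sorbitol from glucose, and lies on the minus strand of GRCm38 at chr6:34302434-34317478. It had 309, 346 and 196 CPM in PBMC-sec cells at 8, 26 and 52 weeks, against 35.0, 84.3 and 23.9 CPM in untreated cells. All 3 PBMC-sec values were above all 3 untreated ones, and the fitted log2 difference, here and below with its standard error, was 2.69 ± 0.31, adjusted p = 0.00715. It was 2.6 ± 0.33, adjusted p = 0.000238 without the mixed members and 2.74 ± 0.33, adjusted p = 0.000721 without the 5 deep ones. An Akr1b3 UMI was found in 31.8, 31.4 and 32.3% of PBMC-sec members at 8, 26 and 52 weeks and 10.4, 23.5 and 11.4% of untreated members, and in 63.4, 64.1 and 58.0% of PBMC-sec keratinocytes and 13.2, 16.3 and 18.4% of untreated keratinocytes. All other cells had 754, 509.5 and 691 CPM with PBMC-sec and 36.0, 40.5 and 39.7 CPM untreated, a log2 difference of 4.28, and the part of free RNA in the members' counts was not tested.

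More genes passed with part of the cells left out. Without the mixed members, 28 of 3382 genes tested (0.828%) passed, 12 higher and 16 lower. Without the 5 deep members, 38 of 4511 (0.842%) passed, 19 higher and 19 lower. The lists shared 18 genes, which are 64.3% and 47.4% of each, and 15 of the 18 were below the limit for free RNA. Without the 52-week pair of libraries 101 of 4144 genes (2.44%) passed, 39 higher and 62 lower. That fit left out libraries rather than cells and had fewer residual degrees of freedom than the 2 of the main fit. Its count is therefore not comparable with those above.

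Fabp4 and Cd34 had higher values with PBMC-sec at each age and passed without the mixed members, and Cd34 also without the deep ones. Fabp4 had 6251, 5797 and 8351 CPM in PBMC-sec cells at 8, 26 and 52 weeks, against 3669, 3003 and 2242 CPM in untreated cells. Every PBMC-sec library was above every untreated one. The log2 difference was 1.25 ± 0.26, adjusted p = 0.131 with all members and 1.01 ± 0.22, adjusted p = 0.0287 without the mixed ones, and it did not pass without the deep ones (1.25 ± 0.30, adjusted p = 0.0796). Cd34, a sialomucin of capillary and progenitor cells, had 562, 334 and 469 CPM in PBMC-sec cells and 183, 206 and 99.6 CPM in untreated cells at the same ages, again with no overlap. Its log2 difference was 1.55 ± 0.32, adjusted p = 0.131 with all members, 1.46 ± 0.27, adjusted p = 0.0105 without the mixed and 1.44 ± 0.28, adjusted p = 0.0287 without the deep members. A Cd34 UMI was found in 64.3, 54.7 and 60.0% of PBMC-sec members at 8, 26 and 52 weeks and 31.2, 41.2 and 34.3% of untreated members, against 1.7 to 5.7% of keratinocytes. Of the 13 capillary genes tested out of 19 listed, 9 were above and 4 below a log2 difference of 0 with a median of 0.29, where all genes tested had a median of 0.01. Fabp4 was the capillary gene that passed without the mixed members, and with all members none of the 13 passed. By age the capillary median was 0.36, −0.10 and 1.29 at 8, 26 and 52 weeks with all members, and 0.46, 0.18 and −0.08 without the mixed ones. The second most abundant, Gpihbp1, had 416, 318 and 465 CPM in PBMC-sec cells and 342, 642 and 155 CPM in untreated cells.

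Further genes followed the same pattern of not passing with all members. Slc6a6, the taurine transporter, had 110.2, 110 and 74.3 CPM in PBMC-sec cells and 31.1, 42.2 and 23.9 CPM in untreated cells at 8, 26 and 52 weeks, with a log2 difference of 1.64 ± 0.33, adjusted p = 0.131 of 2.03 ± 0.41, adjusted p = 0.0181 without the mixed members and of 1.57 ± 0.35, adjusted p = 0.0552 without the deep ones, where it did not pass. Hist1h1c, a linker histone, had 140.5, 153 and 179.9 CPM in PBMC-sec cells and 31.1, 14.1 and 91.6 CPM in untreated cells (log2 1.93 ± 0.40, adjusted p = 0.131; 2.02 ± 0.45, adjusted p = 0.0417 without the mixed members). Tnfrsf22, a decoy receptor for the death ligand TRAIL, had 35.8, 70.7 and 93.9 CPM in PBMC-sec cells and 7.78, 18.7 and 15.9 CPM in untreated cells (log2 2.26 ± 0.46, adjusted p = 0.131; 2.43 ± 0.53, adjusted p = 0.0483 without the deep members). Tnfrsf22 was not among the genes that passed without the mixed members. For all 3 genes the treated and untreated libraries did not overlap. Lower values with PBMC-sec were seen for Kcne3, a potassium channel subunit listed with sprouting genes, which had 27.5, 19.7 and 23.5 CPM in PBMC-sec cells and 121, 89.0 and 51.8 CPM in untreated cells (log2 −1.82 ± 0.38, adjusted p = 0.131; −2.17 ± 0.38, adjusted p = 0.00841 without the mixed members). Fam129a, also called Niban, had 35.8, 31.4 and 11.7 CPM in PBMC-sec cells and 121, 117 and 87.6 CPM in untreated cells (log2 −1.99 ± 0.35, adjusted p = 0.0821; −1.95 ± 0.36, adjusted p = 0.0214 without the deep members; −1.31 ± 0.49, adjusted p = 0.283 without the mixed ones).

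Most type I interferon genes had lower values with PBMC-sec at 8 and 26 weeks and not at 52 weeks. The list was summed to 9623, 7070.4 and 8089 CPM in PBMC-sec cells at 8, 26 and 52 weeks, against 14629, 12769 and 5269 CPM in untreated cells, so the treated value was the lower one at 8 and 26 weeks and the higher one at 52 weeks. In all other cells the same sum was 3252, 2565 and 2723 CPM with PBMC-sec, against 4658, 4264 and 4385 CPM untreated, lower with PBMC-sec at all 3 ages. Of 28 listed genes 25 were tested. With all members 0 passed, 5 were above and 20 below 0, and the median log2 difference was −1.15, against 0.01 over all genes tested. Without the mixed members 5 of 23 passed as lower, against 0.473% of all genes tested that passed as lower, and without the deep members 4 of 25 did, against 0.421%. The median over the 25 genes was −1.74, −2.0 and 0.21 at 8, 26 and 52 weeks, with 22, 22 and 11 genes lower. Whether the ages differed was not tested, since each age has 1 pair of libraries.

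Ifit3, an antiviral protein that binds viral RNA complexes, had 52.3, 3.93 and 46.9 CPM in PBMC-sec cells at 8, 26 and 52 weeks, against 342, 262 and 39.8 CPM in untreated cells. The 8-week and 26-week untreated libraries stood above the other 4. The log2 difference over the ages was −2.43 ± 0.65, adjusted p = 0.239 with all members and −2.94 ± 0.45, adjusted p = 0.00184 without the mixed ones. Isg15, a ubiquitin-like modifier, had 303, 134 and 379 CPM in PBMC-sec cells and 1467, 1312 and 275 CPM in untreated cells, and again the 8-week and 26-week untreated libraries were the high ones (log2 −1.71 ± 0.59, adjusted p = 0.359; −1.77 ± 0.40, adjusted p = 0.0417 without the mixed members). Without the deep members Isg15 did not pass (log2 −1.80 ± 0.48, adjusted p = 0.123). Ifit2 had 11, 11.8 and 23.5 CPM in PBMC-sec cells and 253, 149.9 and 23.9 CPM in untreated cells (log2 −3.05 ± 0.64, adjusted p = 0.131; −4.07 ± 0.49, adjusted p = 0.000171 without the mixed members). Bst2, or tetherin, which holds budding virus at the membrane, had 309, 224 and 344 CPM in PBMC-sec cells and 1545, 1082 and 430.1 CPM in untreated cells, and each PBMC-sec library was below every untreated one (log2 −1.62 ± 0.39, adjusted p = 0.204; −1.81 ± 0.34, adjusted p = 0.0105 without the mixed members). Ifit1 passed in the same way (log2 −3.45 ± 0.50, adjusted p = 0.00138 without the mixed members). Ifitm3 and Ifitm2, which block viral entry, had the highest counts of the list, and Ifitm3 had 6716, 4665 and 5132 CPM in PBMC-sec cells and 6898, 6324 and 2573 CPM in untreated cells (log2 0.21 ± 0.27, adjusted p = 0.841).

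The share of members with an Isg15 UMI was lower with PBMC-sec at each age, by little at 52 weeks. There 65 members stood against 35 and the shares were not tested. The CPM of Isg15 and the median of the list per member went the other way at that age. An Isg15 UMI was found in 34.9, 23.3 and 40.0% of PBMC-sec members at 8, 26 and 52 weeks and 75.3, 73.5 and 45.7% of untreated members, where keratinocytes had 7.5, 6.3 and 12.6% with PBMC-sec and 28.2, 14.0 and 29.4% untreated. With each cell thinned to 1000 UMIs the shares were 24.5, 12.8 and 26.9% of PBMC-sec members and 64.8, 58.7 and 34.4% of untreated members. The interferon list took a median of 93.2, 62.6 and 87.4 UMIs per 10000 in PBMC-sec members, against 125.9, 108.5 and 44.3 UMIs per 10000 in untreated members. In each library the 4 to 13 members richest in these UMIs held 31.6 to 38.6% of them.

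With all members class I antigen presentation genes had the same order by age, with a median log2 difference of −0.92, −0.61 and 0.43 at 8, 26 and 52 weeks over the 15 tested of 16 listed. The 52-week direction turned without the mixed members (median −0.11) and without the deep ones (median −0.09), with 6 genes higher and 9 lower in both. With all members 0 passed, and 2 were above and 13 below 0. H2-T22, a class I-like molecule, was lower without the mixed members (log2 −1.47 ± 0.30, adjusted p = 0.0230) and did not pass without the deep ones (−1.08 ± 0.31, adjusted p = 0.155). B2m, the shared small chain of MHC class I, had 1273, 1765 and 2081 CPM in PBMC-sec cells at 8, 26 and 52 weeks, against 2233, 2061 and 1597 CPM in untreated cells (log2 −0.17 ± 0.27, adjusted p = 0.873). H2-D1, a classical class I heavy chain, had 1455, 1886 and 1310.4 CPM in PBMC-sec cells and 2276, 2056 and 1175 CPM in untreated cells (log2 −0.16 ± 0.24, adjusted p = 0.865). Of 8 class II genes 1 was tested.

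Chaperones of the endoplasmic reticulum had lower values with PBMC-sec at each age. The unfolded protein response list, which these genes belong to, summed to 5581, 7542 and 4741 CPM in PBMC-sec cells at 8, 26 and 52 weeks, against 13555, 11298 and 18698 CPM in untreated cells. All 3 PBMC-sec libraries were below all 3 untreated ones. In all other cells the sum was 4641, 3351 and 3773 CPM with PBMC-sec, against 4417, 4232 and 8029 CPM untreated. All 20 tested genes of 21 listed were below 0 with all members, the median was −0.97 and 0 passed. Without the deep members 4 of 20 passed as lower, against 0.421% of all genes tested, and without the mixed ones 1 of 19 did, against 0.473%. By age the median was −1.09, −0.44 and −1.59 at 8, 26 and 52 weeks. In 52-week untreated skin 4 of 35 members held 74.6% of these UMIs, where the richest members of the other libraries held 36.6 to 51.9%. Without the mixed members the sum was 5775, 7661 and 3995 CPM in PBMC-sec members and 13181, 10381 and 11047 CPM in untreated members.

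Hspa5, also called BiP, the main chaperone of the endoplasmic reticulum, had 1678, 2193 and 1318 CPM in PBMC-sec cells at 8, 26 and 52 weeks, against 4533, 3654 and 8427 CPM in untreated cells. The untreated libraries were higher at every age, and 52-week untreated skin was the highest. The log2 difference was −1.56 ± 0.34, adjusted p = 0.133 with all members, −1.35 ± 0.29, adjusted p = 0.0406 without the deep members and −1.20 ± 0.28, adjusted p = 0.0545 without the mixed ones. The level of 52-week untreated cells was 3659 CPM without its mixed members. Hsp90b1, also called GRP94, had 763, 1061 and 661 CPM in PBMC-sec cells and 2879, 1911 and 3580.3 CPM in untreated cells (log2 −1.69 ± 0.31, adjusted p = 0.0903; −1.76 ± 0.29, adjusted p = 0.00451 without the mixed members; −1.67 ± 0.30, adjusted p = 0.0175 without the deep ones). The disulfide isomerase gene Pdia3 had 344, 373 and 215 CPM in PBMC-sec cells and 786, 712 and 661 CPM in untreated cells (log2 −1.20 ± 0.26, adjusted p = 0.133; −1.18 ± 0.24, adjusted p = 0.0325 without the deep members; −1.06 ± 0.25, adjusted p = 0.0502 without the mixed ones). Sel1l, a part of the degradation machinery, also passed without the deep members (log2 −1.80 ± 0.39, adjusted p = 0.0450). In single cells thinned to 1000 UMIs, an Hsp90b1 UMI was found in 45.5, 44.9 and 30.8% of PBMC-sec members and 64.8, 69.8 and 53.1% of untreated members.

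Ero1l, the oxidase that supplies disulfide bonds to the endoplasmic reticulum, had 410.5, 853 and 372 CPM in PBMC-sec cells at 8, 26 and 52 weeks, against 1595, 1274 and 2421 CPM in untreated cells. No treated library reached an untreated one, and the log2 difference was −1.70 ± 0.37, adjusted p = 0.134 with all members and −1.91 ± 0.33, adjusted p = 0.00789 without the mixed ones. Bnip3, a hypoxia-induced gene of mitophagy, had 176, 271 and 179.9 CPM in PBMC-sec cells and 517, 445 and 474 CPM in untreated cells, also without overlap (log2 −1.18 ± 0.28, adjusted p = 0.190; −1.56 ± 0.29, adjusted p = 0.0105 without the mixed members). The hypoxia list as a whole had 19 tested genes of 22, 5 above and 14 below 0, with a median of −0.35, and 0 passed with all members. By age its median was −0.45, 0.15 and −0.77 at 8, 26 and 52 weeks, and at 26 weeks 13 of the 19 genes were higher with PBMC-sec. Without the mixed members the medians were −0.31, 0.04 and −0.87, and at 26 weeks 10 genes were higher and 9 lower. Its most abundant genes were glycolytic. Ldha, lactate dehydrogenase, had 1300.3, 1387 and 806 CPM in PBMC-sec cells and 1455, 1209 and 1306 CPM in untreated cells (log2 −0.17 ± 0.25, adjusted p = 0.858), and Gapdh had 1521, 2547 and 1689.8 CPM in PBMC-sec cells and 3474, 2796 and 2887 CPM in untreated cells (log2 −0.66 ± 0.26, adjusted p = 0.416).

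Oxidant response genes had higher values with PBMC-sec at 8 and 26 weeks, and at 52 weeks the direction depended on the mixed members. Of 19 genes listed under NRF2 and iron 18 were tested, 13 were above and 5 below 0, the median was 0.49, and 0 passed with all members. The median by age was 0.65, 0.75 and −0.36 at 8, 26 and 52 weeks with all members and 0.60, 0.68 and 0.69 without the mixed ones. Srxn1, sulfiredoxin, which restores peroxiredoxins, had 438, 637 and 282 CPM in PBMC-sec cells at 8, 26 and 52 weeks, against 163, 229.5 and 255 CPM in untreated cells. Each PBMC-sec library was above every untreated one, by little at 52 weeks. The log2 difference was 1.06 ± 0.31, adjusted p = 0.288 with all members, 1.80 ± 0.27, adjusted p = 0.00156 without the mixed and 1.48 ± 0.25, adjusted p = 0.0137 without the deep members. Hmox1, haem oxygenase, had 2353, 3631 and 1921 CPM in PBMC-sec cells and 1280, 1963 and 2529 CPM in untreated cells, so the 52-week order was opposite to the others (log2 0.51 ± 0.28, adjusted p = 0.581). Without the mixed members Hmox1 had 2737, 4332 and 2458 CPM in PBMC-sec cells and 1366, 2011 and 630.1 CPM in untreated cells (log2 1.35 ± 0.25, adjusted p = 0.0105), and without the deep ones it did not pass (log2 0.70 ± 0.25, adjusted p = 0.295). The ferritin chains Fth1 and Ftl1 had the highest counts of the list, and Fth1 had 6482, 10081 and 7276 CPM in PBMC-sec cells and 3758, 7317 and 7021 CPM in untreated cells (log2 0.48 ± 0.21, adjusted p = 0.458).

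The hypertonicity list holds osmolyte genes that the factor NFAT5 targets, among them Akr1b3 and Slc6a6. It also holds genes that do not handle osmolytes, such as Ddit4 and Sgk1. Of 14 listed genes 11 were tested, 10 were above and 1 below 0, the median was 0.53, and Akr1b3 alone passed with all members. Slc6a6 also passed without the mixed ones. The median by age was 1.08, 0.45 and 0.11 at 8, 26 and 52 weeks, and the 52-week direction turned to −0.45 without the mixed and −0.04 without the deep members. The most abundant genes of the list were Ddit4, an inhibitor of mTORC1, with 581, 609 and 329 CPM in PBMC-sec cells and 770.3, 689 and 494 CPM in untreated cells (log2 −0.34 ± 0.24, adjusted p = 0.688), and the amino acid transporter Slc38a2, with 325, 511 and 415 CPM in PBMC-sec cells and 311, 342 and 267 CPM in untreated cells (log2 0.47 ± 0.26, adjusted p = 0.580).

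Ccl2, which recruits monocytes, had 3625, 983 and 1177 CPM in PBMC-sec cells at 8, 26 and 52 weeks, against 1167, 459 and 609 CPM in untreated cells. PBMC-sec was higher at each age, but the ranges overlapped across ages, with 8-week PBMC-sec the highest. The log2 difference was 1.28 ± 0.24, adjusted p = 0.0903 with all members, 1.29 ± 0.25, adjusted p = 0.0258 without the deep and 0.96 ± 0.26, adjusted p = 0.0881 without the mixed members. Cxcl1, which attracts neutrophils, had 4876, 2869 and 1932 CPM in PBMC-sec cells and 1891, 1223 and 4604 CPM in untreated cells (log2 0.53 ± 0.45, adjusted p = 0.739), and Cxcl2 had 3055, 1352 and 2511 CPM in PBMC-sec cells and 759, 885 and 2652 CPM in untreated cells (log2 0.88 ± 0.34, adjusted p = 0.416). For both, 52-week skin did not follow the order of the younger ages. Cxcl3 had 463, 216 and 563 CPM in PBMC-sec cells and 27.2, 23.4 and 7.96 CPM in untreated cells and passed with all members (log2 4.38 ± 0.44, adjusted p = 0.00267), with higher levels in all other cells. Csf2, a growth factor for myeloid cells, had 163, 17 and 3 UMIs in PBMC-sec members and 0, 0 and 15 UMIs in untreated members, and was also over the limit for free RNA. The list of cytokines and chemokines had 15 tested genes of 21, 10 above and 5 below 0, with a median of 0.53, and Cxcl3 was the 1 gene that passed. By age the median was 0.83, 0.39 and −0.08 with all members and 0.93, 0.35 and 0.64 without the mixed ones. The same numbers of richest members held 57.0 to 71.8% of these UMIs, against 31.6 to 38.6% for the interferon list.

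**Figure D4:**
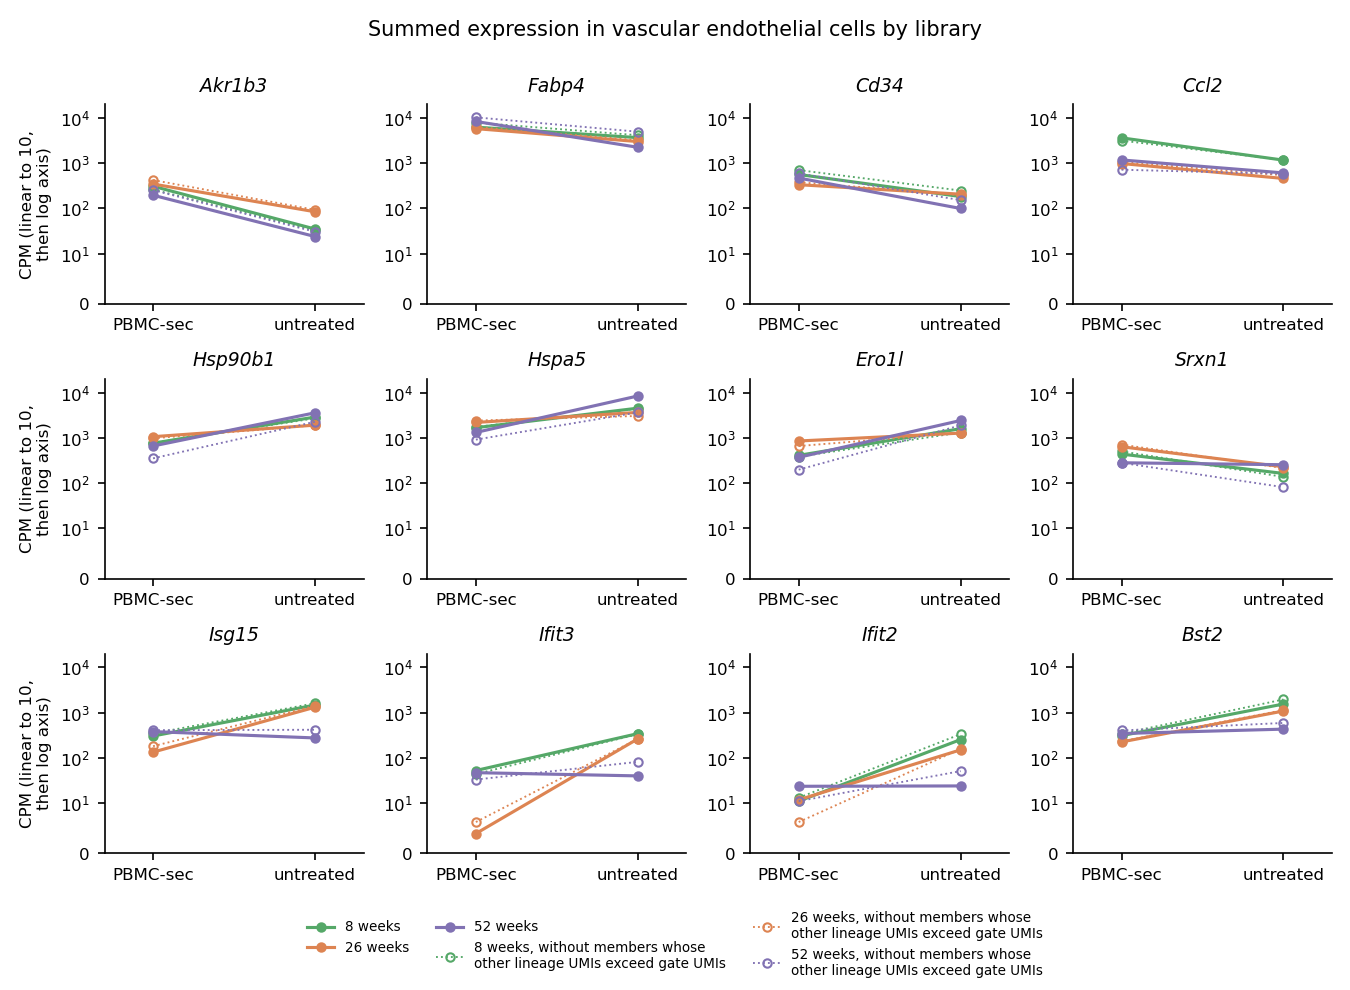
CPM of 12 genes in the summed members of each library, PBMC-sec left and untreated right (axis linear to 10 and logarithmic above); solid lines join the libraries of an age for all members and dotted lines do so without the members whose other-lineage UMIs exceed the rule-gene UMIs. Akr1b3, Fabp4, Cd34 and Ccl2 are higher and Hsp90b1, Hspa5 and Ero1l lower with PBMC-sec at each age, while the solid 52-week lines of Isg15, Ifit3 and Ifit2 are nearly flat.

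No gene of the identity, receptor, junction or Notch and BMP lists passed with all members. For the transcription factors that set endothelial identity, 18 of 22 listed were tested, 15 were above and 3 below 0, the median was 0.27 and 0 passed. At 52 weeks 12 of them were higher and 6 lower with all members (median 0.42). There 11 were higher and 7 lower without the mixed members (median 0.16), and 7 and 11 without the deep ones (median −0.18). Tcf4, which is abundant in endothelium, had 573, 424 and 626 CPM in PBMC-sec cells at 8, 26 and 52 weeks, against 373, 567 and 469.9 CPM in untreated cells (log2 0.25 ± 0.27, adjusted p = 0.817), and Ets1 had 388, 601 and 419 CPM in PBMC-sec cells and 471, 403 and 342 CPM in untreated cells (log2 0.24 ± 0.27, adjusted p = 0.824). Receptors for growth factors, Notch ligands and lipids gave 14 above and 4 below 0 of 18 tested, with a median of 0.33 and 0 passing. Without the mixed members 8 were above and 7 below (median 0.11), and without the deep ones 10 and 8 (median 0.14). Eng, the endoglin co-receptor for BMP ligands, had 388, 362 and 286 CPM in PBMC-sec cells and 187, 337 and 179 CPM in untreated cells (log2 0.65 ± 0.27, adjusted p = 0.447). S1pr1, the receptor for sphingosine-1-phosphate that stabilises junctions, had 281, 255 and 278 CPM in PBMC-sec cells and 265, 281 and 203 CPM in untreated cells (log2 0.18 ± 0.25, adjusted p = 0.859). Junction genes gave 7 above and 4 below 0 of 11 tested with a median of 0.19, and Esam, an adhesion molecule of tight junctions, had 364, 456 and 352 CPM in PBMC-sec cells and 607, 679 and 219 CPM in untreated cells (log2 −0.20 ± 0.32, adjusted p = 0.879). At 52 weeks 9 junction genes were higher and 2 lower with all members, and 5 and 6 both without the mixed and without the deep ones. Targets of Notch and BMP gave 7 above and 3 below 0 with a median of 0.24, and the BMP target Id1 had 515, 263 and 258 CPM in PBMC-sec cells and 327, 384 and 71.7 CPM in untreated cells (log2 0.61 ± 0.38, adjusted p = 0.633).

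Vessel wall genes were covered by 4 lists. In the list of vasoactive and haemostatic genes 10 were above and 3 below 0 of 13 tested, with a median of 0.28. Procr, the endothelial receptor for protein C, had 705, 809.6 and 469 CPM in PBMC-sec cells at 8, 26 and 52 weeks, against 366, 464 and 414 CPM in untreated cells (log2 0.69 ± 0.26, adjusted p = 0.393). Basement membrane genes gave 5 above and 12 below 0 of 17 tested with a median of −0.20. Igfbp7, a matrix protein of vessels, had 2747, 1489.5 and 2179 CPM in PBMC-sec cells and 1817, 2197 and 2895 CPM in untreated cells (log2 −0.08 ± 0.26, adjusted p = 0.95), and Sparc, a matrix glycoprotein that fibroblasts also make, had 1846, 931 and 1342 CPM in PBMC-sec cells and 1432, 1869 and 2915 CPM in untreated cells (log2 −0.54 ± 0.29, adjusted p = 0.562). Genes of the endothelial-to-mesenchymal transition gave 4 above and 6 below 0 of 10 tested with a median of −0.14. Leukocyte adhesion genes gave 2 above and 6 below 0 of 8 tested with a median of −0.22. Cd34, which is also on this list, passed as higher without the mixed and without the deep members, as given above. Icam1, a ligand of leukocyte integrins, had 435, 239.7 and 364 CPM in PBMC-sec cells and 249, 412 and 442 CPM in untreated cells (log2 −0.04 ± 0.31, adjusted p = 0.983).

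Arterial genes gave 4 above and 4 below 0 with a median of 0.04, and Dll4 had 149, 197 and 125 CPM in PBMC-sec cells at 8, 26 and 52 weeks, against 167, 319 and 63.7 CPM in untreated cells (log2 −0.02 ± 0.33, adjusted p = 0.991). Venous genes gave 6 above and 6 below 0 of 12 tested with a median of −0.20. Their most abundant gene, Bgn, a proteoglycan of fibroblasts and vessels, had 60.6, 43.2 and 109.5 CPM in PBMC-sec cells and 35.0, 60.9 and 2119 CPM in untreated cells, and its 52-week untreated value moved with the fibroblast markers above. Sprouting genes gave 9 above and 5 below 0 of 14 tested with a median of 0.17. Plaur, the urokinase receptor, had 642, 629 and 364 CPM in PBMC-sec cells and 506, 660.5 and 382 CPM in untreated cells (log2 0.12 ± 0.24, adjusted p = 0.916).

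No gene of the general response lists passed with all members. The NF-kB feedback list gave 13 above and 3 below 0 of 16 tested with a median of 0.16, and Nfkbia, the inhibitor that NF-kB induces, had 4163, 3498 and 2742 CPM in PBMC-sec cells at 8, 26 and 52 weeks, against 2793, 3157 and 2636 CPM in untreated cells (log2 0.31 ± 0.21, adjusted p = 0.678). Immediate early genes, which respond to dissociation, gave 15 above and 10 below 0 of 25 tested with a median of 0.12, and heat shock genes 6 above and 9 below 0 of 15 with a median of −0.02. Senescence genes gave 7 above and 7 below 0 of 14 with a median of 0.05, and without the deep members Igfbp5 and H1f0 passed as higher. Igfbp5 was over the limit for free RNA. It had 156 UMIs in 8-week PBMC-sec members and 1 to 13 UMIs in each other library. Genes of oxidative phosphorylation gave 13 above and 5 below 0 of 18 with a median of 0.10, and ribosomal protein genes 51 above and 19 below 0 of 70 with a median of 0.09. Both directions turned without the mixed members, with 8 above and 10 below for oxidative phosphorylation (median −0.02) and 24 above and 46 below for ribosomal protein genes (median −0.06). Heat shock genes also turned there, with 10 above and 4 below (median 0.09). Of 16 cell cycle genes 3 were tested.

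The remaining most abundant genes of the lists did not pass either, and Anxa2 had the smallest adjusted p among them (edgeR, 0.447). Of vessel and signalling genes, the log2 differences between PBMC-sec and untreated members were Efnb2 (0.50 ± 0.35), Lrg1 (−0.52 ± 0.30), Id3 (0.28 ± 0.28) and Nfkbiz (−0.22 ± 0.30), a cofactor of NF-kB. Of structural genes they were Ctnnb1 (0.54 ± 0.27), which encodes beta-catenin, Vim (−0.29 ± 0.35), which encodes vimentin, Anxa2 (−0.57 ± 0.24) and Tgfb1 (−0.37 ± 0.26). Of stress genes they were Hsp90ab1 (0.10 ± 0.20) and Hspa8 (−0.12 ± 0.23), both cytosolic chaperones, Ier3 (0.29 ± 0.34), Jund (0.46 ± 0.23), Gdf15 (0.94 ± 0.41), Ftl1 (0.05 ± 0.26) and Ifitm2 (0.05 ± 0.23). Of housekeeping genes they were Cox4i1 (0.32 ± 0.24) and Cox8a (0.09 ± 0.25) of the respiratory chain, Rps2 (−0.20 ± 0.20) and Rpl13 (0.08 ± 0.19) of the ribosome, and Pcna (0.94 ± 0.40) and Hmgb2 (0.47 ± 0.28) of the cell cycle list.

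**Figure D5:**
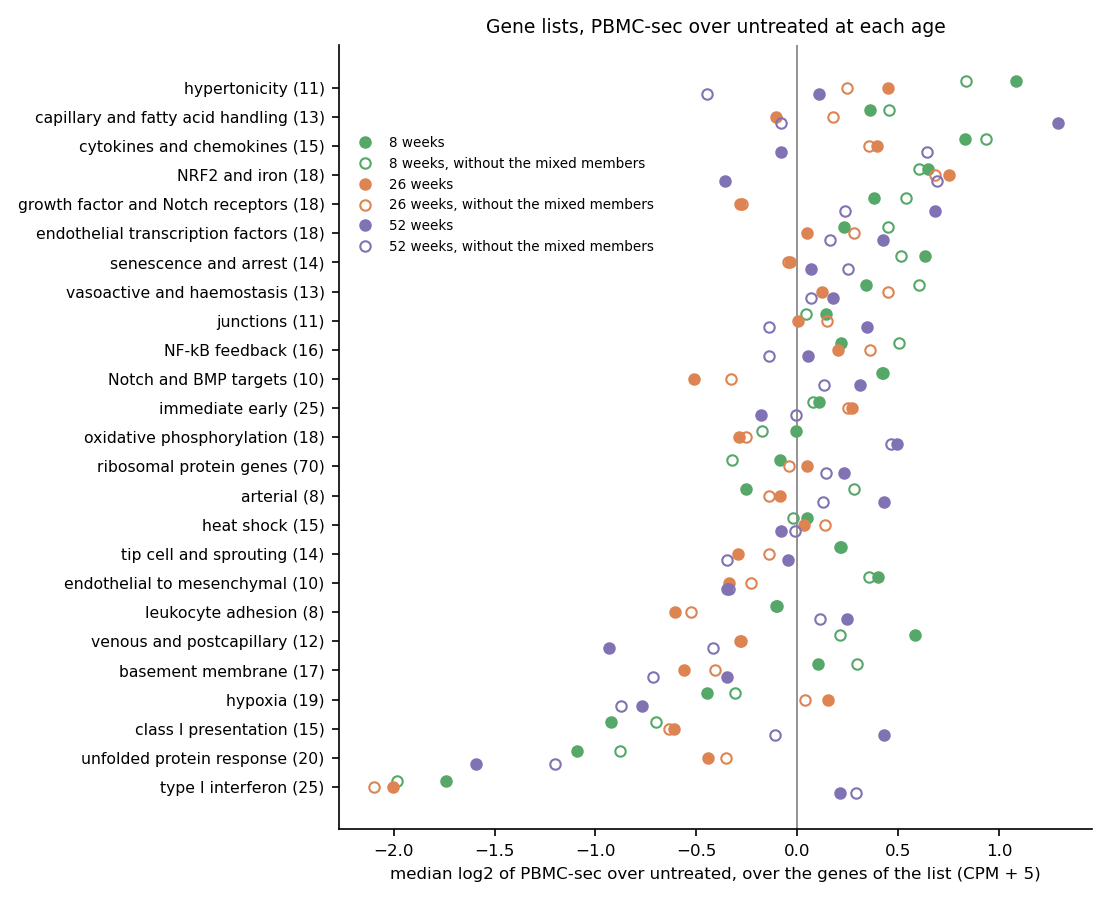
Median log2 difference, PBMC-sec over untreated, over the tested genes of each list (number in brackets) at 8, 26 and 52 weeks, computed from CPM + 5; filled points are all members and open points leave out the mixed members. The interferon list lies at −1.74 and −2.0 at 8 and 26 weeks and at 0.21 at 52 weeks, and the unfolded protein response list is below 0 at all 3 ages.

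Age differences in the same members were few. Between 52 and 8 weeks 1 of 4531 genes (0.0221%) passed in the same edgeR fit, and 238 had an unadjusted p under 0.05, with DESeq2 giving 2. The gene was Krt14, a keratin of basal keratinocytes that is over the limit for free RNA. It had 180 and 163 CPM at 52 weeks (PBMC-sec and untreated), against 1248 and 1159 CPM at 8 weeks, while all other cells had 3151 and 3517 CPM at 52 weeks against 8549.8 and 5862 CPM at 8 weeks (log2 −2.77 ± 0.33, adjusted p = 0.0261). Without the 5 deep members 5 of 4511 genes (0.111%) passed and without the mixed ones 1 of 3382 (0.0296%), all of them over the limit for free RNA. Krt14 no longer passed with the highest doublet scores removed or with a gate of 8 UMIs, where 0 genes passed. Without the 52-week PBMC-sec library 163 genes passed, and without the 8-week PBMC-sec library 51 did, so the count depended on single libraries.

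The 6 genes below the free RNA limit with the smallest p did not pass. Their 52-week untreated values include the mixed members, which held 60.8% of the members' UMIs in that library. The part of RNA from other lineages in these 6 genes was not tested. Tnc, tenascin C, a matrix protein of remodelling tissue, had 352 and 219 CPM at 52 weeks (PBMC-sec and untreated), against 55.1 and 77.8 CPM at 8 weeks (log2 2.13 ± 0.39, adjusted p = 0.194). Both older libraries were above both younger ones. Timp1, an inhibitor of matrix metalloproteinases, had 82.1 and 195 CPM at 52 weeks, against 22 and 58.4 CPM at 8 weeks in the same order (log2 1.83 ± 0.37, adjusted p = 0.229). Bmp2, a ligand of the BMP pathway that endothelium secretes, had 31.3 and 47.8 CPM at 52 weeks, against 146 and 167 CPM at 8 weeks, with the older libraries lower (log2 −1.96 ± 0.37, adjusted p = 0.194). Fdx1, a mitochondrial ferredoxin, had 97.8 and 79.7 CPM at 52 weeks, against 24.8 and 27.2 CPM at 8 weeks (log2 1.81 ± 0.43, adjusted p = 0.471), Fmo2, a monooxygenase, had 93.9 and 171 CPM at 52 weeks, against 33.1 and 31.1 CPM at 8 weeks (log2 2.05 ± 0.49, adjusted p = 0.478), and Ccl2 had 1177 and 609 CPM at 52 weeks, against 3625 and 1167 CPM at 8 weeks (log2 −1.25 ± 0.29, adjusted p = 0.471). Of 10 Notch and BMP targets 1 was above and 9 below 0 at 52 against 8 weeks (median −0.65), of 25 interferon genes 2 were above and 23 below (median −0.74), and of 70 ribosomal protein genes 64 were above and 6 below (median 0.21), where all genes tested had a median of −0.00. Without the mixed members the ribosomal protein genes summed to 186555 and 165124 CPM at 52 weeks (PBMC-sec and untreated). At 8 weeks they summed to 154205 and 194043 CPM, so the direction turned in untreated cells. The sums of the Notch and BMP and the interferon lists stayed lower at 52 weeks in both treatments.

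Between 26 and 8 weeks 0 of 4531 genes (0.0%) passed in edgeR, 134 had an unadjusted p under 0.05, and DESeq2 gave 2. Ccl2 had 983 and 459 CPM at 26 weeks (PBMC-sec and untreated), against 3625 and 1167 CPM at 8 weeks (log2 −1.68 ± 0.29, adjusted p = 0.234). Glutathione genes were among those with the smallest p. Gstm1, a glutathione transferase, had 236 and 117 CPM at 26 weeks, against 82.6 and 54.5 CPM at 8 weeks (log2 1.3 ± 0.35, adjusted p = 1.0), Gstp1, another transferase, had 1155 and 642 CPM at 26 weeks, against 477 and 272 CPM at 8 weeks (log2 1.21 ± 0.36, adjusted p = 1.0), and Gclc, the rate-limiting enzyme of glutathione synthesis, had 507 and 169 CPM at 26 weeks, against 179 and 81.7 CPM at 8 weeks (log2 1.28 ± 0.37, adjusted p = 1.0). For Gstm1 and Gstp1 the 26-week libraries were above the 8-week ones, and for Gclc they overlapped. Col13a1, a membrane-bound collagen, had 98.3 and 159 CPM at 26 weeks, against 16.5 and 50.6 CPM at 8 weeks (log2 1.94 ± 0.52, adjusted p = 1.0), and Rpl7l1, a ribosome-like protein, had 31.4 and 32.8 CPM at 26 weeks, against 118 and 62.2 CPM at 8 weeks (log2 −1.52 ± 0.43, adjusted p = 1.0). Of 18 NRF2 and iron genes 16 were above and 2 below 0 (median 0.49), and of 15 cytokine and chemokine genes 2 were above and 13 below (median −0.75), against a median of −0.02 over all genes.

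The treatment difference was set against that of all other cells of the same libraries by an interaction test. It passed for 28 of 9128 genes (0.307%), 20 with a more positive difference in the members and 8 with a more negative one. Of the 28, 13 were over the limit for free RNA. Without the 52-week pair 0 genes passed, and without the 26-week pair 119 did. Sox18, a transcription factor of vessel development, had 287, 197 and 254 CPM in PBMC-sec cells at 8, 26 and 52 weeks, against 113, 229.5 and 55.8 CPM in untreated cells. It had 0.863, 0.314 and 1.03 CPM with PBMC-sec and 2.70, 1.89 and 1.33 CPM untreated in all other cells, and the difference between the log2 differences was 2.55 ± 0.37, adjusted p = 0.00875. In the members Sox18 with PBMC-sec was higher at 8 and 52 weeks and lower at 26 weeks. Myct1, a membrane protein of endothelium, had 149, 106 and 269.9 CPM in PBMC-sec cells and 73.9, 60.9 and 95.6 CPM in untreated cells (interaction log2 2.39 ± 0.48, adjusted p = 0.0443), higher with PBMC-sec at each age. Apln, the tip cell ligand apelin, had 57.9, 11.8 and 97.8 CPM in PBMC-sec cells and 3.89, 9.37 and 67.7 CPM in untreated cells (interaction log2 3.11 ± 0.57, adjusted p = 0.0266), where all other cells had 3.15, 1.73 and 2.35 CPM with PBMC-sec and 6.78, 6.38 and 13.7 CPM untreated.

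Icam2, an adhesion molecule that endothelium carries at rest, had 116, 110 and 121 CPM in PBMC-sec cells at 8, 26 and 52 weeks, against 148, 215 and 79.7 CPM in untreated cells, with no one direction in the members. It passed (interaction log2 2.37 ± 0.48, adjusted p = 0.0443) where all other cells had 0.216, 0.314 and 0.227 CPM with PBMC-sec and 2.10, 1.69 and 1.48 CPM untreated. Ifit3, H2-T22, Tnfrsf22 and Csta3 have close copies in the mouse genome among which reads can be split, so their counts are less certain. All other cells still include endothelial cells too shallow for the rule and the cells that the lymphatic clause removed. There the rule gene Pecam1 had 2.80, 1.98 and 2.65 CPM with PBMC-sec at 8, 26 and 52 weeks, against 6.26, 5.31 and 4.44 CPM untreated. Cdh5 had 3.41, 2.29 and 2.12 CPM with PBMC-sec there, against 8.28, 5.51 and 6.23 CPM untreated. The other rule genes except Emcn were also lower with PBMC-sec there at each age. Emcn was higher with PBMC-sec at 8 and 26 weeks, with 1.60 and 1.95 CPM against 1.24 and 1.53 CPM. At 52 weeks it was lower, with 1.24 CPM against 2.09 CPM. The part of such leftover endothelial RNA in the interactions was not tested. Csta3, a cysteine protease inhibitor, passed with 2.67 ± 0.48, adjusted p = 0.0266. Jade1, a scaffold of a histone acetyltransferase, had 30.3, 39.3 and 15.6 CPM in PBMC-sec cells and 140.1, 89.0 and 59.7 CPM in untreated cells, and was more negative in the members (interaction log2 −2.19 ± 0.44, adjusted p = 0.0443). S1pr1 (1.86) was more positive in the members. The interferon genes Ifit3 and Isg15 did not pass this test (adjusted p = 0.877 and 0.993), nor did Akr1b3 (log2 −1.44 ± 0.36, adjusted p = 0.164), Fabp4 (adjusted p = 0.616) or Hspa5 (adjusted p = 0.384).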

How the data were processed

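Single-cell RNA-seq of dorsal skin was measured in 6 libraries (Chromium Single Cell 3′ v3.1, per the labels' protocols). The authors deposited raw UMI counts of 32285 features per barcode; Cell Ranger 5.0.1 made them, per the file headers, on mm10 (GRCm38), per the submitters' processing notes. For the annotation release behind the counts, the sources used here name none. Gene positions are GENCODE vM21 on GRCm38 (477 of 477 IDs matched).

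Member counts were summed per library and tested with edgeR 4.0.16 (quasi-likelihood, TMM, filterByExpr, age and treatment as terms, 2 residual degrees of freedom, Benjamini-Hochberg, threshold 0.05). The contrast with all other cells had library, class, class by age and class by treatment as terms. Nothing says that treatment pairs come from separate animals, and p-values measure only the spread of the treatment difference between ages. Differences by age use log2 of CPM + 5. Other tools were DESeq2 1.42.0, R 4.3.3, scanpy 1.11.5, numpy 2.4.6 and matplotlib 3.10.9. Scrublet called 0 to 3 barcodes per library by its own threshold and so did not work. Doublets were kept, and in 1 alternative the highest scores were removed at 0.8% per 1000 barcodes (109 to 683 barcodes). On simulated data with the depths of these sums, a log2 change of 2 was recovered for 88.3% and of 1 for 18.9% of changed genes in the treatment test (4227 genes), for 79.2% and 22.0% in the 52-week test (4239 genes), and a log2 change of 2 for 79.5% in the contrast with all other cells (9174 genes). The simulations gave every gene a dispersion of 0.05 and held no deep or mixed cells. For the contrast with all other cells, the changed genes were drawn only from genes with higher counts in the members. Its recovery therefore does not cover genes of low counts such as Apln. Apart from the changed genes, libraries differed only in depth, so recovery in the real data can be lower.

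Named genes have at least 30 UMIs and are below the free RNA limit (CPM in all other cells over 5 times that in members of any library). They are those past the threshold by size of change, the next by p where few passed, and the most abundant 2 of each list with those that passed. Genes that passed without the mixed or deep members were also named after their values were seen, and Igfbp5 and Csf2 among them are over the free RNA limit. The members and gene lists were chosen with earlier results of these data known. A comparison with pericytes was not run because 26-week untreated skin held 17, under the 30 set as the minimum. Alternatives covered scaling, count filter, tool, cell filters, gate, thinning and leaving out libraries. Results for 1 gene are not reported here.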

Additional observations from a re-analysis of the deposited data

Results flagged for a closer look

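The venous and postcapillary list had a median log2 difference between PBMC-sec and untreated members of 0.58 at 8 weeks (12 genes tested), −0.28 at 26 weeks and −0.93 at 52 weeks, opposite directions at the youngest and the oldest age. The difference between ages was not tested, since each age has 1 pair of libraries. Without the 5 deep members of 52-week untreated skin the 52-week median was −0.50, and without the mixed members the 3 medians were 0.21, −0.28 and −0.42. Bgn, the gene of this list that fibroblasts also express, had 109.5 CPM in 52-week PBMC-sec members and 2119 CPM in 52-week untreated members, where the fibroblast markers summed to 4341 CPM. The part of fibroblast RNA in the list was not tested.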

How the results depend on the processing

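Of 4531 genes, 6 passed for treatment with all members. The count was 12 with DESeq2, 129 with no filter on low counts, 14 with a gate of 8 UMIs, 28 without the mixed members, 38 without members above 20000 UMIs, 19 of 1430 with cells thinned to 1000 UMIs, and 8 to 101 without 1 age. For 52 against 8 weeks it was 1, and 2 with DESeq2, 62 with no filter, 0 with the highest doublet scores removed, 0 with a gate of 8 UMIs, 5 without members above 20000 UMIs, 0 with thinning, and 0 to 163 without 1 library. For 26 against 8 weeks it was 0, and 2 with DESeq2, 20 with no filter, 2 with a gate of 8 UMIs, 1 without the mixed members, 2 without members above 20000 UMIs, and 0 to 39 without 1 library. Against all other cells it was 28, and 77 with no filter and 0 to 119 without 1 age. The cause was not tested, beyond the fewer cells, genes or libraries that an alternative leaves. The treatment fit is paired by age, with 1 library of each treatment per age, and dropping the age term left 4 genes; the labels carry no replicate numbers. Of single named values, 895 kept direction and call, 86 passed only under an alternative, 11 lost their call, 39 without a call moved, and 0 called values reversed. The 35 to 129 members per library limit all counts, and simulated log2 changes of 1 were mostly not recovered.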
